A study of Danio rerio with 8 samples.

Results

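Solute carrier genes encode membrane proteins that move sugars, amino acids, ions, metabolites and neurotransmitters into and out of cells and organelles. They were taken here as the genes whose zebrafish symbol at NCBI starts with slc and a family number. The anion exchanger genes slc4a2a and slc4a1a, the ADP/ATP carrier gene slc25a4 and the sodium-calcium exchanger genes slc8a1a and slc8a1b were left out. Of 432 such genes in the RefSeq gene table, 214 had a probe matched through its RefSeq accession and 183, from 47 families, were measured well enough to be compared. These 183 are among 20743 transcripts compared in all, of which 8907 carry a gene name. The other 31 genes with a probe were well above background on fewer than 4 arrays and were not compared.

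Each carrier family works by a shared fold and a characteristic substrate. Carriers of the plasma membrane either let a solute follow its gradient, as the glucose carriers of family slc2 do, or couple it to sodium, protons or chloride, as the amino acid and neurotransmitter carriers do. Most carriers of family slc25 sit in the inner mitochondrial membrane and exchange metabolites, phosphate and nucleotides between the cytosol and the matrix. Heart muscle depends on fatty acid, lactate and glucose uptake, on mitochondrial exchange of ADP for ATP, and on acid-base and sodium-coupled transport around each contraction.

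Gene expression was measured in zebrafish larvae, whose hearts were sampled at 4 days post fertilization (dpf). Sorafenib, an inhibitor of RAF kinases and of growth factor receptors that is used against cancer, was given at 1 uM between 72 and 96 hours post fertilization, and control larvae received the vehicle over the same period. Cy3-labelled RNA was hybridised to 8 Agilent arrays, 4 per group, described by the labels as independent experiments. The labels give neither the strain, nor the vehicle's nature, nor the number of hearts per array, so p-values measure the spread between these samples, which may be partly technical.

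A level below is the log2 processed signal of a gene's brightest probe minus the 75th percentile of that array. Levels serve to compare arrays and not genes, because probes differ in brightness. The 75th percentile itself lay between 85.1 and 154.6 intensity units, and 55.0% to 59.5% of spots per array were well above background. The number of arrays limits the precision. Arrays came from 2 slides, each with 2 control and 2 sorafenib arrays, so that slide could be separated from treatment. Heart muscle RNA was present: 10 of 11 listed heart muscle genes were compared, and all 10 were well above background on every array, including myl7, tnnt2a and nppa. Markers of other tissues were well above background too and set some arrays apart. Over 17 neural markers the median level relative to the control mean was -1.18 and -1.48 in sorafenib replicates 2 and 3, against -0.34 to 0.27 in controls. Over 11 yolk and digestive tract markers it was 1.90 in control replicate 1 and 2.48 in sorafenib replicate 3, against -0.96 to -0.35 in the other controls. The heart muscle markers were also highest in sorafenib replicates 2 and 3, at 0.78 and 0.91, with controls between -0.34 and 0.40. For these reasons many results are also given without sorafenib replicates 2 and 3, an alternative chosen after seeing the marker values. Where that value is not given, the result may differ in that fit as well. With whole-heart RNA, fewer cells of a type and less RNA per cell cannot be told apart.

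No solute carrier gene passed the comparison of sorafenib with control after adjustment over all transcripts. Differences at an unadjusted p under 0.05 included higher transcripts of slc16a9a, slc23a4 and slc5a8l and a lower transcript of slc2a15b. In limma 0 of 20743 transcripts (0%) had a p under 0.05 after Benjamini-Hochberg adjustment, and the smallest adjusted p of a solute carrier gene was 0.366, for slc2a15b. Before adjustment 1567 transcripts (7.55%) had a p under 0.05. Of the 183 solute carrier genes 14 were higher (7.65%) and 6 lower (3.28%) at this threshold, beside 4.17% higher and 3.39% lower of all transcripts. Among named genes alone the shares were 4.93% and 2.99%. The lower share of carriers thus lay at the background, and the higher share above it, a difference for which no test was made. Groups did not overlap for 8 higher and 3 lower carriers, or 4.37% and 1.64%, beside 2.27% and 1.94% of all transcripts. The log2 fold change, sorafenib minus control, was above 0 for 106 of the 183 (57.9%), beside 48.1% of all transcripts and 53.7% of named genes. Its median was +0.05, against -0.02 over all transcripts and +0.03 over named genes. Among the 162 carriers well above background on all 8 arrays, 13 were higher (8.02%) and 4 lower (2.47%) at this threshold, with a median of +0.05. All 17796 transcripts measured that well gave 4.15% higher and 2.90% lower, with a median of 0.00. Counts at this threshold in the roles and lists below stand beside the 4.17% higher and 3.39% lower of all transcripts.

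**Figure D1:**
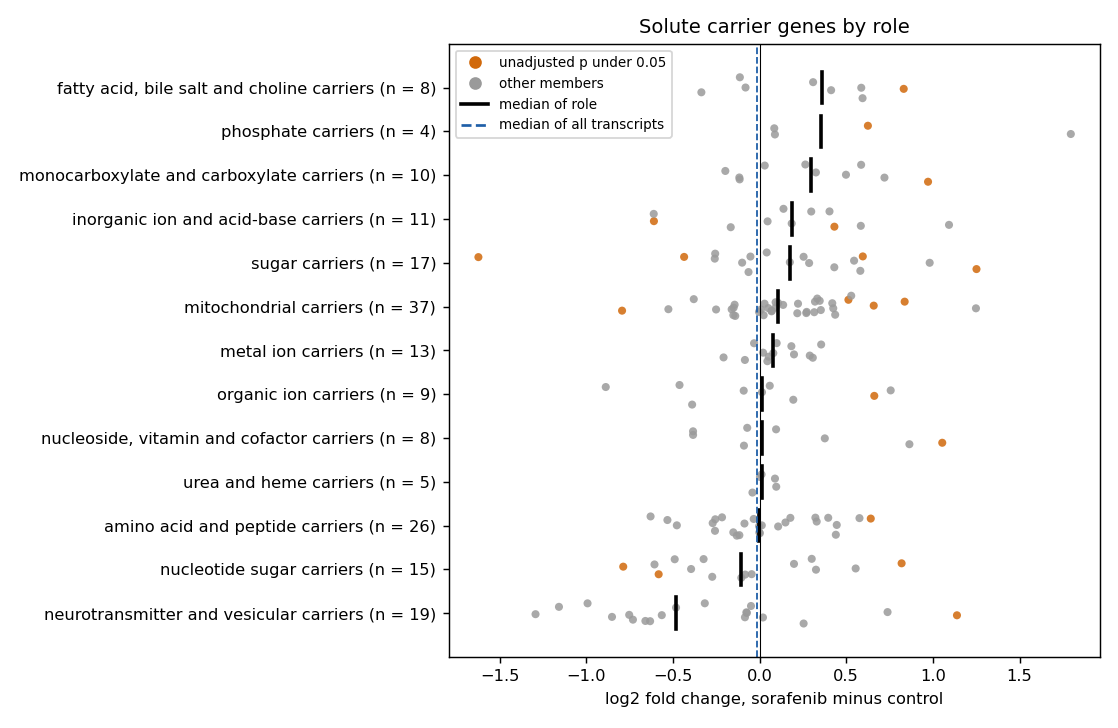
Log2 fold change (sorafenib minus control) of solute carrier genes, 1 point per gene, in rows by the role of their family, with the role's median as a black bar and the median of all transcripts as a dashed line. Medians run from -0.48 for neurotransmitter and vesicular carriers to +0.36 for fatty acid, bile salt and choline carriers, orange points had an unadjusted limma p under 0.05, and slc67a1, of a family without a listed role, is not drawn.

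The 20 carriers at this threshold were chosen by their p on these same 8 arrays. Signs kept in subsets of these arrays, and the order of arrays given below, were thus largely set by that choice. The 20 kept the sign of their difference on each slide taken alone, in each fit that left out 1 array, and without sorafenib replicates 2 and 3. In that last fit 6 carriers were higher and 4 lower, where all transcripts gave 1.75% and 1.70%, and 8 of the 20 still passed the unadjusted threshold. Of the 14 higher carriers, all 14 had sorafenib replicates 2 and 3 above every control array, and 7 also had replicates 1 and 4 above every control array. Control replicate 1 was the highest control for 10 of the 14. Leaving out 1 array moved the number of higher carriers. It was 30 in place of 14 when control replicate 1 or sorafenib replicate 4 was left out, 9 when sorafenib replicate 2 was, and 7 for control replicate 3, control replicate 4 or sorafenib replicate 3. The number of lower carriers was 11 in place of 6 when sorafenib replicate 1 was left out, 16 when sorafenib replicate 4 was, and 4 for control replicate 3 or 4. Without sorafenib replicate 4 the share of all transcripts was 9.49% higher and 8.61% lower, in place of 4.17% and 3.39%. Without control replicate 1 it was 5.71% higher and 3.35% lower, and without sorafenib replicate 1 it was 3.91% and 5.69%. In the other fits that left out 1 array it lay between 2.34% and 3.11% higher and between 1.92% and 3.15% lower. Within slide 1 the fit held 4 higher and 5 lower carriers at this threshold (2.19% and 2.73%), beside 1.42% and 1.46% of all transcripts. Within slide 2 it held 10 and 6 (5.46% and 3.28%), beside 1.68% and 1.55%.

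**Figure D2:**
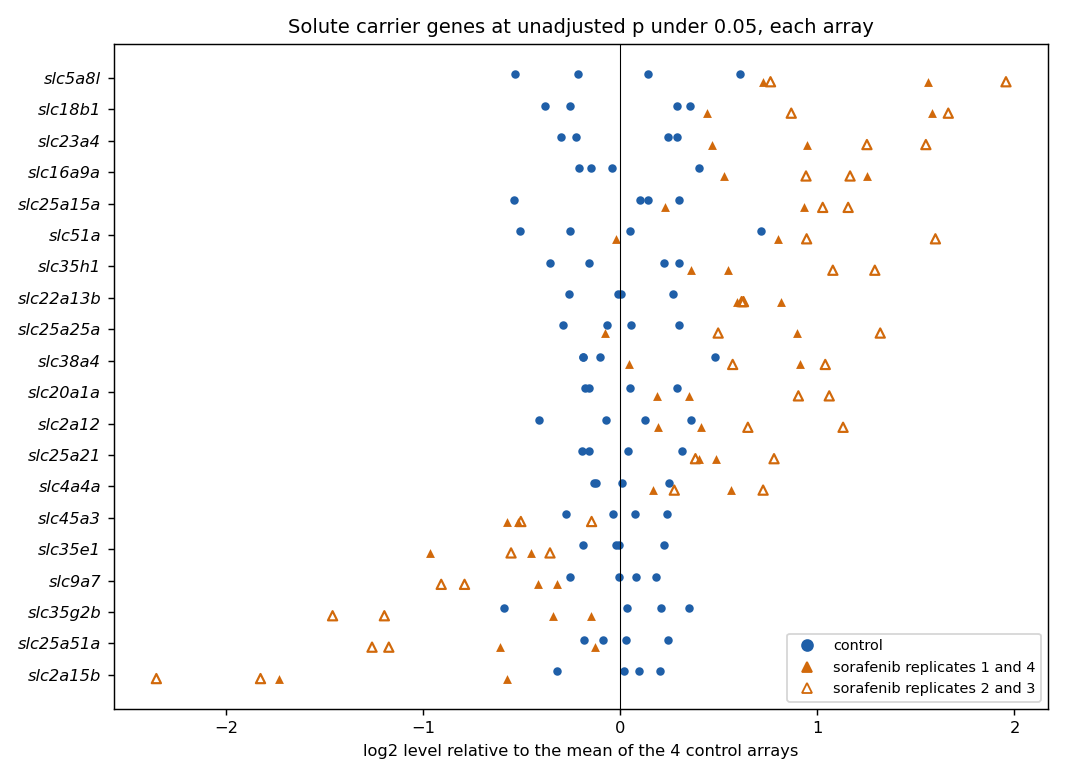
Level of each of the 20 solute carrier genes at an unadjusted limma p under 0.05 on each of the 8 arrays (log2, relative to the mean of the 4 control arrays of that gene), with sorafenib replicates 2 and 3 as open triangles. The 14 higher genes lie right of the control points for most sorafenib arrays, from slc5a8l (+1.25) to slc4a4a (+0.43). The 6 lower genes, down to slc2a15b (-1.62), lie left of them for most sorafenib arrays, except slc35g2b, where only replicates 2 and 3 do.

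Families slc16 and slc13, grouped here as carriers of monocarboxylates and dicarboxylates, had 7 of 10 positive values, with a median of +0.29. Without sorafenib replicates 2 and 3 it was 5 of 10 and +0.16. Roles were given to whole families, so single members may carry other solutes or sit in other membranes. The gene slc16a9a belongs to the monocarboxylate transporter family. Its level was 0.68, 0.74, 1.29 and 0.85 on control arrays 1 to 4 and 2.14, 1.83, 2.06 and 1.42 on sorafenib arrays 1 to 4. Every sorafenib array lay above every control array. Its mean was 0.89 ± 0.27 (SD, n = 4) in controls and 1.86 ± 0.32 (SD, n = 4) with sorafenib. The difference of +0.97 ± 0.22 (SE) had an unadjusted p of 0.00148 and an adjusted p of 0.391 in limma, and it was +1.27 on slide 1 and +0.67 on slide 2. It stayed at +0.89 without sorafenib replicates 2 and 3. The lactate carriers slc16a1b and slc16a3b both stood at -0.12, each within its error of 0.17 and 0.23. The probe of slc16a1b was dim, with mean levels of -3.70 in controls and -3.82 with sorafenib, and the authors' series values gave 0.00.

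The related gene slc5a8l carries the family number of the sodium-coupled sugar carriers, while SLC5A8 of mammals takes up monocarboxylates such as lactate with sodium. Control levels were -1.30, -2.44, -2.12 and -1.76, and sorafenib levels were -1.18, -1.14, 0.05 and -0.34. The groups did not overlap, and control replicate 1 was the nearest control to the sorafenib arrays. The log2 fold change was +1.25 ± 0.34 (limma adjusted p = 0.482), and its 2 probes gave +1.25 and +1.38. It was +0.71 on slide 1 and +1.80 on slide 2, and +0.56 after normexp background correction, which adds an offset of 50 and so gives smaller folds for dim probes.

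Sugar carriers pointed both ways: 10 of 17 had positive values, with a median of +0.17, and 2 were higher and 2 lower at an unadjusted p under 0.05. It was again 10 of 17, with a median of +0.19, without sorafenib replicates 2 and 3. The facilitative glucose carrier gene slc2a12 had control levels of 0.96, 0.53, 0.73 and 0.19 and sorafenib levels of 1.01, 1.25, 1.73 and 0.79. Its groups overlapped, since sorafenib replicate 4 lay below control replicate 1, and the difference was +0.60 ± 0.25 (limma adjusted p = 0.652). Without sorafenib replicates 2 and 3 it was +0.30. The gene slc45a3 was lower by -0.44 ± 0.18, with 3 of 4 sorafenib arrays between -0.75 and -0.68 and sorafenib replicate 3, at -0.32, within the control range of -0.45 to 0.06. The lowest log2 fold change of any carrier belonged to slc2a15b, which in medaka is needed for pigment cells. On control arrays its level was -2.73, -3.07, -2.65 and -2.54, and on sorafenib arrays it was -4.48, -4.57, -5.10 and -3.32. No sorafenib array reached the control range. The probe was well above background on all 4 control arrays and on 1 sorafenib array, so its size is set partly by the background. The log2 fold change was -1.62 ± 0.34 (unadjusted p = 0.000989, adjusted p = 0.366 in limma), and it was -1.15 without sorafenib replicates 2 and 3 and -0.19 after normexp.

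Other carriers listed for pigment cells were also below 0. The median over the 3 of 9 listed genes that were compared was -0.89. The organic anion carrier gene slc22a7a, also listed for liver, gut and kidney, stood at -0.89 ± 0.41. The gene slc24a4a, of the potassium-dependent sodium-calcium exchangers, stood at -0.61. These values were -0.31 and -0.01 without sorafenib replicates 2 and 3. In sorafenib replicates 2 and 3 all 3 genes were below every control array, and without these arrays the median was also -0.31.

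Nucleobase, vitamin and organic ion carriers had medians of +0.01, with 1 higher member each. The medians became -0.03 for nucleobase and vitamin carriers and +0.12 for organic ion carriers without sorafenib replicates 2 and 3. The gene slc23a4, whose rat homologue carries nucleobases, had control levels of -2.87, -3.34, -3.42 and -2.82 and sorafenib levels of -2.65, -1.86, -1.56 and -2.17. Again the groups did not overlap. The difference was +1.05 ± 0.26 (unadjusted p = 0.00283, adjusted p = 0.441 in limma), and it was +0.71 without sorafenib replicates 2 and 3. It was +0.33 after normexp and +0.24 in the authors' series values. The organic anion carrier gene slc22a13b, whose human homologue SLC22A13 carries urate and nicotinate, had sorafenib levels of -2.39, -2.36, -2.36 and -2.17. Its control levels were -2.98, -3.24, -2.99 and -2.71. The separation was complete and the difference +0.66 ± 0.17 (limma adjusted p = 0.441), with +0.70 without sorafenib replicates 2 and 3. It was +0.19 after normexp and +0.06 in the authors' series values. In the opposite direction slc29a4a, of the equilibrative nucleoside carriers, stood at -0.38 ± 0.26 and at +0.01 without sorafenib replicates 2 and 3.

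Phosphate and acid-base carriers had mostly positive values, in 4 of 4 phosphate carriers (median +0.36) and in 8 of 11 inorganic ion carriers (median +0.19). With these 2 sorafenib replicates, 2 and 3, left out, it was 3 of 4 (median +0.25) and 6 of 11 (median +0.09). The sodium-phosphate cotransporter gene slc20a1a stood at 3.04, 2.80, 2.59 and 2.57 in controls and at 3.1, 3.65, 3.81 and 2.94 with sorafenib. Sorafenib replicate 4 lay below control replicate 1. The difference of +0.62 ± 0.23 (limma adjusted p = 0.630) was +0.27 without sorafenib replicates 2 and 3. The sodium bicarbonate cotransporter gene slc4a4a was higher by +0.43 ± 0.19 (limma adjusted p = 0.654) and by +0.36 without those arrays. Its control levels were 2.25, 1.88, 1.87 and 2.01, and its sorafenib levels of 2.56, 2.28, 2.73 and 2.17 overlapped them in replicate 4 alone. The sodium-proton exchanger gene slc9a7, which acts in the Golgi, went the other way without overlap. Controls stood at 1.72, 1.47, 1.91 and 1.81 and sorafenib arrays at 1.41, 0.94, 0.82 and 1.31. The log2 fold change was -0.61 ± 0.19 (unadjusted p = 0.0112, adjusted p = 0.568 in limma), -0.42 on slide 1 and -0.80 on slide 2. Without sorafenib replicates 2 and 3 it was -0.37. The largest positive log2 fold change among the carriers compared, +1.80 for the phosphate carrier gene slc34a2a, had an error of 0.97 and its probe was well above background on 1 control array and 3 sorafenib arrays.

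Mitochondrial carriers were the most numerous role, and 27 of 37 had positive values, with a median of +0.11. Without sorafenib replicates 2 and 3 it was 22 of 37 with a median of +0.04. At an unadjusted p under 0.05, 3 were higher and 1 lower. The gene slc25a15a encodes an ornithine carrier of the urea cycle. It stood at -0.30, -0.50, -0.46 and -1.14 in controls and at 0.33, 0.56, 0.43 and -0.37 with sorafenib. Sorafenib replicate 4 overlapped the controls, while the other sorafenib arrays lay above them. The difference of +0.84 ± 0.26 (unadjusted p = 0.0105, adjusted p = 0.559 in limma) was +0.85 on slide 1 and +0.83 on slide 2, and +0.58 without sorafenib replicates 2 and 3. The oxodicarboxylate carrier gene slc25a21 separated the groups, with controls at 0.18, -0.09, -0.29 and -0.33 and sorafenib arrays at 0.36, 0.25, 0.65 and 0.27. Its log2 fold change was +0.51 ± 0.18 (limma adjusted p = 0.620), and +0.44 without those 2 arrays. The third, slc25a25a, an ATP-magnesium/phosphate carrier gene, was at +0.66 ± 0.29 and overlapped in sorafenib replicate 4. Without sorafenib replicates 2 and 3 slc25a25a was at +0.41. Lower was slc25a51a, whose human homologue carries NAD into mitochondria, at -3.29, -3.08, -3.19 and -2.86 in controls and -3.24, -4.28, -4.36 and -3.72 with sorafenib. Replicate 1 of the sorafenib group lay within the control range, and 2 of 4 sorafenib arrays were well above background. The difference was -0.79 ± 0.26 (limma adjusted p = 0.586), -0.37 without sorafenib replicates 2 and 3 and -0.05 after normexp.

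**Figure D3:**
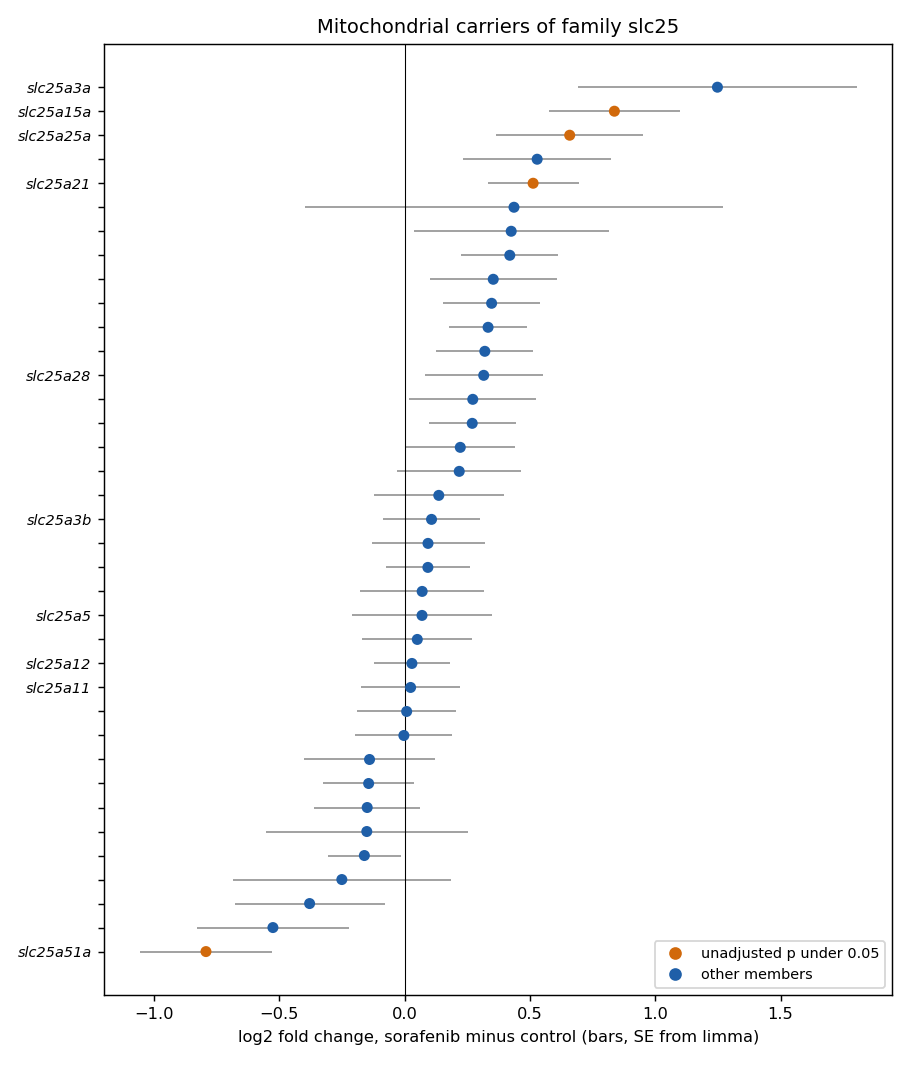
Log2 fold change (sorafenib minus control) of the 37 mitochondrial carriers of family slc25, with the standard error from limma as a bar; genes chosen by the naming rule or with an unadjusted p under 0.05 are labelled, and orange points had an unadjusted p under 0.05. Values run from -0.79 (slc25a51a) to +1.25 (slc25a3a), and 27 lie above 0.

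Carriers known in cardiac energy and ion metabolism centred near 0. Of 30 listed genes, 15 were compared, 8 had positive values, 0 reached an unadjusted p under 0.05 in limma and the median was +0.02. The highest value was +1.25 ± 0.56, for the phosphate carrier gene slc25a3a (unadjusted p = 0.0505 in limma), whose probe was well above background on 2 of 4 control arrays. It was +0.75 without sorafenib replicates 2 and 3 and +0.21 after normexp. The ADP/ATP carrier gene slc25a5 stood at 8.51, 8.03, 7.91 and 7.79 in controls and at 8.70, 8.11, 8.25 and 7.45 with sorafenib, a difference of +0.07 ± 0.28. Its groups overlapped. Exchangers of the malate-aspartate shuttle were also close to 0, with slc25a11, the oxoglutarate carrier gene, at +0.02 ± 0.20 and slc25a12, the aspartate-glutamate carrier gene, at +0.03 ± 0.15. The glucose carrier gene slc2a3a stood at -0.26 ± 0.31 and the sodium-potassium-chloride cotransporter gene slc12a2 at -0.17 ± 0.24. Fatty acid carrier genes gave -0.08 ± 0.16 (slc27a1a), +0.59 ± 0.37 (slc27a1b) and -0.34 ± 0.37 (slc27a6). Without sorafenib replicates 2 and 3 they gave -0.15, +0.31 and -0.70. For slc27a6, with mean levels of -3.61 in controls and -3.95 with sorafenib, normexp gave +0.01 and the authors' series values 0.00. The heavy chain genes of the amino acid exchangers, slc3a2a and slc3a2b, gave +0.11 ± 0.24 and -0.12 ± 0.32. The taurine carrier gene slc6a6b was at +0.74 ± 0.38, with levels of -3.42, -3.61, -4.43 and -3.91 in controls and -2.63, -3.12, -2.50 and -4.18 with sorafenib. Its sorafenib replicate 4 lay inside the control range, and the value was +0.44 without sorafenib replicates 2 and 3. It was +0.17 after normexp and 0.00 in the authors' series values, whose floor a dim probe can share. A difference the size of such an error was not detectable with these arrays.

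Fatty acid, bile salt and choline carriers were positive in 5 of 8 cases, with a median of +0.36, and 6 of 8 with +0.27 without sorafenib replicates 2 and 3. The gene slc51a encodes a subunit of the bile salt and steroid exporter. Controls were at 2.97, 2.30, 1.74 and 2.0 and sorafenib arrays at 3.05, 3.2, 3.85 and 2.23, overlapping in sorafenib replicate 4. The difference was +0.83 ± 0.37 (limma adjusted p = 0.654), and +0.39 without sorafenib replicates 2 and 3.

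Amino acid and peptide carriers centred on 0, with 12 of 26 positive values, 1 higher and 0 lower at an unadjusted p under 0.05 in limma. In the fit without sorafenib replicates 2 and 3, 16 of 26 were positive, with a median of +0.03. The neutral amino acid carrier gene slc38a4 had levels of 6.17, 5.50, 5.58 and 5.50 in controls and 6.60, 6.26, 6.73 and 5.73 with sorafenib. Control replicate 1 stood apart from the other controls and sorafenib replicate 4 lay below it. The log2 fold change was +0.64 ± 0.26 (limma adjusted p = 0.647), and its 3 probes ranged from +0.41 to +0.64. The counts of this role include slc7a6os, which carries the prefix by its position beside slc7a6 and does not encode a carrier.

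Family slc35, grouped here as nucleotide sugar carriers of the Golgi and endoplasmic reticulum, had 10 of 15 negative values and a median of -0.11. The role was given to the whole family, so single members may carry other solutes. The median was -0.11 without sorafenib replicates 2 and 3 as well, -0.30 on slide 1, -0.04 on slide 2 and 0.00 after normexp. Leaving out 1 array gave -0.23 (control replicate 3) to -0.06 (sorafenib replicate 1). The gene slc35h1 was higher without overlap, from -1.21, -1.13, -1.79 and -1.59 in controls to -0.88, -0.35, -0.14 and -1.07 with sorafenib. Its difference of +0.82 ± 0.26 (limma adjusted p = 0.559) was +0.45 without sorafenib replicates 2 and 3. The gene slc35e1 was lower without overlap, from 0.51, 0.75, 0.34 and 0.52 to -0.43, -0.02, 0.18 and 0.08. At -0.58 ± 0.19 (limma adjusted p = 0.568) it was -0.71 without those arrays. The gene slc35g2b was at -0.79 ± 0.34, with control levels of 3.41, 2.79, 3.73 and 3.59 and sorafenib levels of 3.23, 2.18, 1.92 and 3.04. Sorafenib replicates 1 and 4 lay inside the control range, and without replicates 2 and 3 the value was -0.24. The GDP-fucose carrier gene slc35c1 stood at -0.49 ± 0.24, and at -0.66 without sorafenib replicates 2 and 3. Normexp and the authors' series values both gave 0.00. Its probe was dim, with mean levels of -3.49 in controls and -3.98 with sorafenib, so neither 0.00 shows an unchanged level.

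Metal ion carriers had 10 of 13 positive values, a median of +0.08 and 0 members at an unadjusted p under 0.05 in limma. On slide 1 it was 7 of 13 and +0.04, on slide 2 it was 10 of 13 and +0.16, and without sorafenib replicates 2 and 3 it was 9 of 13 and +0.03. The zinc exporter gene slc30a1a stood at +0.36 ± 0.23 and the zinc importer gene slc39a6 at -0.21 ± 0.22. Carriers of erythroid iron and heme metabolism had 4 of 7 positive values. Among them the iron exporter gene slc40a1 was at +0.29 ± 0.20, and at +0.13 without sorafenib replicates 2 and 3. Of the mitoferrin genes, slc25a37 was at +0.44 (unadjusted p = 0.613 in limma) and slc25a28 at +0.32 ± 0.23. The 3 probes of slc25a28 ranged from -0.16 to +0.32. Without sorafenib replicates 2 and 3 slc25a37 was at +0.54 and slc25a28 at +0.11. The heme carrier genes slc48a1a and slc48a1b were at -0.04 and +0.09.

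Neurotransmitter and vesicular carriers had the lowest median of any role, -0.48, with 15 of 19 negative values. Without sorafenib replicates 2 and 3 the median was -0.14, with 12 of 19 negative, and after normexp it was -0.05. Normexp gives smaller folds for dim probes, so that last median says little about the brighter members. All 14 compared genes of 32 listed as typical of neurons and glia were below 0, with a median of -0.65 and 0 of them at an unadjusted p under 0.05 in limma. The list was drawn up with earlier results of these data known. It holds none of the 4 positive members of this role: slc18b1 (+1.14), slc6a6b (+0.74), slc6a7 (+0.25) and slc17a9b (+0.02). The carrier gene slc6a1b, which takes GABA back into neurons and glia, stood at 5.55, 4.58, 5.36 and 5.33 in controls and at 5.06, 3.57, 3.15 and 5.07 with sorafenib. Sorafenib replicates 2 and 3 lay below every control and replicates 1 and 4 within the control range. Its difference was -0.99 ± 0.46, -1.03 after normexp and -0.14 without sorafenib replicates 2 and 3. The vesicular GABA and glycine carrier gene slc32a1 showed the same order, with 4.61, 3.81, 4.25 and 4.31 in controls and 4.07, 3.07, 2.79 and 4.12 with sorafenib. It stood at -0.73 ± 0.33, at -0.70 after normexp and at -0.15 without those arrays. The vesicular acetylcholine carrier gene slc18a3b went from -0.63 ± 0.29 to -0.14, the vesicular glutamate carrier gene slc17a6b from -1.16 ± 0.61 to -0.66 and the glial glutamate carrier gene slc1a2b from -0.63 ± 0.36 to 0.00. The probe of slc17a6b was well above background on 2 of 4 sorafenib arrays. Its value was +0.04 on slide 1, -2.36 on slide 2 and -0.05 after normexp. After normexp slc18a3b stood at -0.42 and slc1a2b at -0.66.

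Neural markers moved with these carriers array by array. Over the 14 carriers the median level relative to the control mean was 0.23, -0.27, 0.12 and 0.10 on control arrays 1 to 4 and -0.10, -1.10, -1.41 and -0.13 on sorafenib arrays 1 to 4. Over the 17 compared neural markers, of 21 listed, it was 0.06, -0.34, 0.04 and 0.27, and then -0.03, -1.18, -1.48 and 0.02. In sorafenib replicates 2 and 3, 16 of 17 neural markers and 8 of 14 carriers were below every control array. The median log2 fold change of the markers was -0.63, or 0.00 without both arrays, and that of the carriers -0.65, or -0.15. Of the defining markers, elavl3 and snap25a were compared at -0.35 and -0.45, and gap43 had no matched probe. The part of neural tissue in the carriers' values was not tested.

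A vesicular carrier differed in the other direction. The gene slc18b1, whose human homologue loads polyamines into vesicles, was not well above background on any control array (-4.23, -4.29, -4.84 and -4.96) and was on all 4 sorafenib arrays (-3.00, -3.71, -2.92 and -4.14). Sorafenib arrays, with a mean of -3.44, were 2.20-fold higher than control arrays, with a measured mean of -4.58 (limma adjusted p = 0.478). This fold counted each control array with its own signal or with the lowest signal of any probe well above background there, whichever was higher. On all 4 it was its own signal, so the fold is the fitted difference of +1.14 ± 0.31 (SE) and not a lower limit. The gene entered the comparison through its sorafenib arrays alone, so that a difference was built into its choice, and it is counted among the 14 higher carriers and the 8 without overlap. After normexp the log2 fold change was +0.19.

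**Figure D4:**
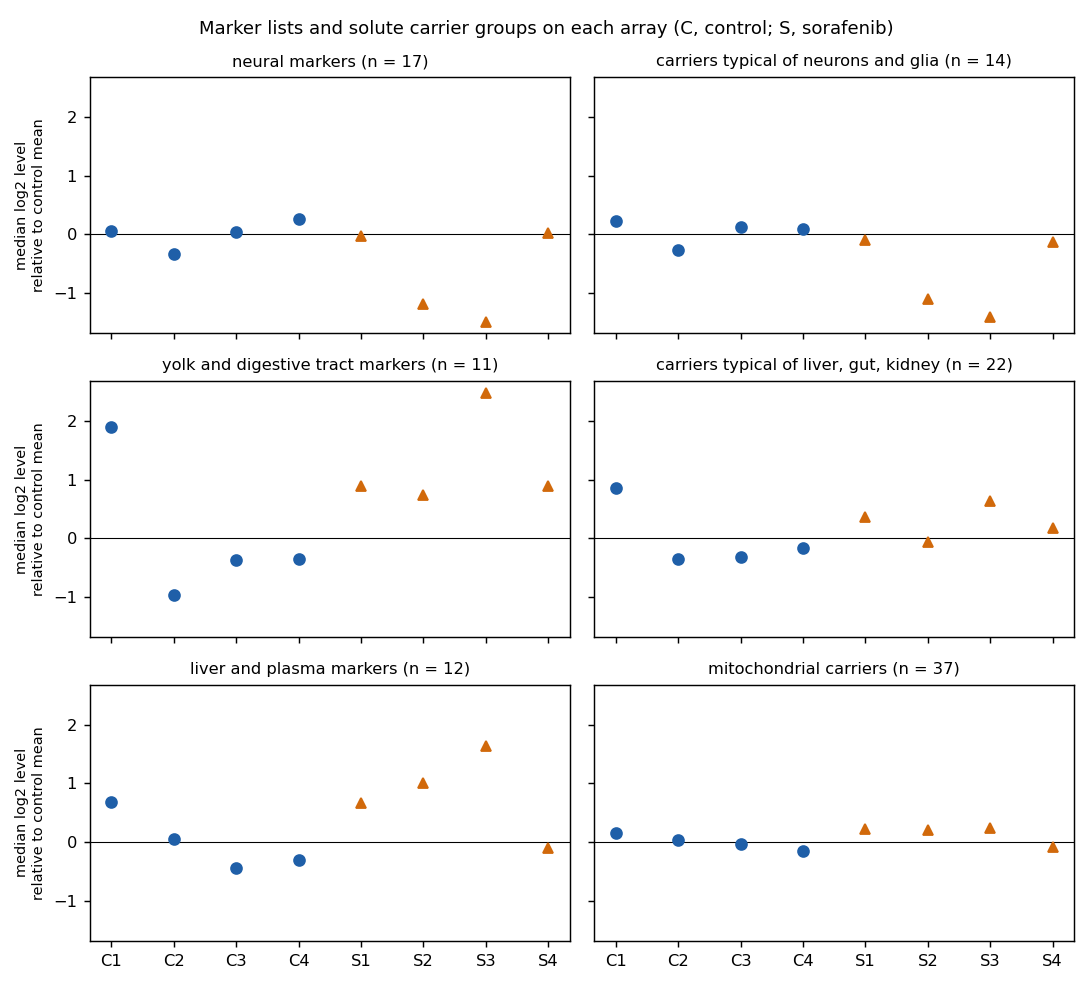
Median log2 level, relative to the mean of the 4 control arrays, of 3 marker lists (left column) and 3 groups of solute carriers (right column) on each array, with controls as circles and sorafenib arrays as triangles. Neural markers and carriers typical of neurons and glia are both lowest in S2 and S3, and control 1 is the highest control for yolk and digestive tract markers (1.90) and for carriers typical of liver, gut and kidney (0.86).

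Carriers typical of liver, gut and kidney were mostly above 0, with 16 of 22 positive values and a median of +0.38. The lowest value of the 22 was that of slc22a7a, -0.89, which is also listed for pigment cells. At an unadjusted p under 0.05 in limma 3 were higher (slc20a1a, slc4a4a and slc51a), or 13.6%, beside 4.17% of all transcripts. Control replicate 1 was the highest control for 21 of the 22. The median level relative to the control mean was 0.86 there, against -0.35, -0.32 and -0.17 on the other control arrays, and 0.36, -0.06, 0.63 and 0.18 on sorafenib arrays 1 to 4. Yolk and digestive tract markers followed the same order in controls, with control replicate 1 highest for 11 of 11 compared genes of 16 listed. They stood at 1.90, -0.96, -0.37 and -0.35 in controls and at 0.89, 0.74, 2.48 and 0.90 with sorafenib. Their defining members prss1, cpa5 and gcga gave +1.60, +1.96 and +1.47. Liver and plasma markers were above 0 in 12 of 12 compared genes of 20 listed, with a median of +0.74, or +0.27 without sorafenib replicates 2 and 3. The defining liver marker cp stood at +1.16 and fabp10a at +0.72, while tfa had no matched probe. Of 12 listed markers of kidney tubule and ionocytes 9 were compared, 6 above 0, with a median of +0.31. Without control replicate 1 20 of the 22 carriers were positive, with a median of +0.61, and without sorafenib replicates 2 and 3 it was 18 of 22 and +0.29. On slide 1, which holds control replicate 1, the median was +0.11 with 12 positive, and on slide 2 it was +0.66 with 20 positive. Whether these tissues take part in the carriers' values was not tested.

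Duplicated genes, which zebrafish keep from an ancient genome duplication, could be compared in 14 pairs whose symbols differ only in a final a or b. The pair slc35d1, homologous to a human carrier of UDP-glucuronic acid, differed most, with slc35d1a at -0.61 ± 0.33 and slc35d1b at +0.55 ± 0.30. Levels of slc35d1a were -2.37, -2.21, -2.40 and -2.05 in controls and -3.39, -2.96, -3.28 and -1.82 with sorafenib. Those of slc35d1b were 0.41, 0.37, 0.22 and -0.08 in controls and 0.66, 1.04, 1.45 and -0.02 with sorafenib. Sorafenib replicates 1 to 3 lay below every control for slc35d1a and above every control for slc35d1b, whereas replicate 4 was the highest array for slc35d1a and lay within the control range for slc35d1b. After normexp slc35d1a stood at -0.04. Without sorafenib replicates 2 and 3 the pair stood at -0.35 and +0.09, a gap of 0.44, and the widest gap was then that of slc25a47, at 1.09 (-0.68 for slc25a47a and +0.42 for slc25a47b). With all arrays the next pair was slc25a3, the mitochondrial phosphate carrier: slc25a3a stood at +1.25 ± 0.56 and slc25a3b at +0.11 ± 0.19. Then came slc16a9a at +0.97 against slc16a9b at +0.26 ± 0.24 (+0.72 on slide 1 and -0.20 on slide 2), and slc27a1a at -0.08 against slc27a1b at +0.59. No test of the difference within a pair was made. At the other end slc43a2a and slc43a2b, of a family of neutral amino acid carriers, stood at +0.44 and +0.40.

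**Figure D5:**
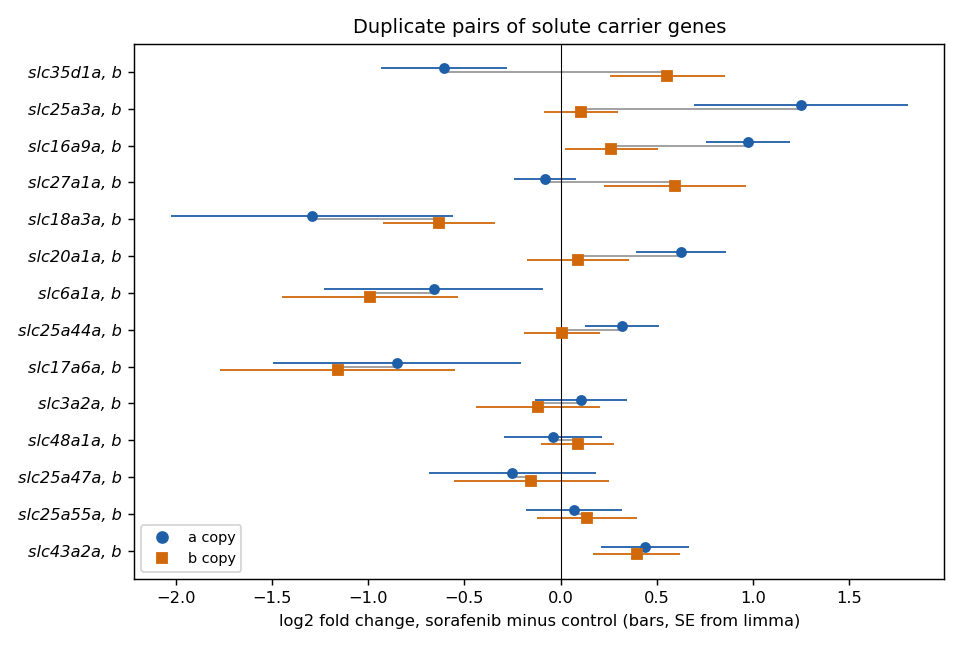
Log2 fold change (sorafenib minus control) of both members of 14 duplicate pairs, with standard errors from limma, ordered by the size of the difference within the pair. The pair slc35d1 lies on both sides of 0 (-0.61 and +0.55), while the members of slc43a2 nearly coincide (+0.44 and +0.40).

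By family number, 12 families had 5 or more members in the comparison. Their medians ran from -0.32 in slc6 (11 members, 9 below 0) to +0.58 in slc5 (5 members, 4 above 0). Family slc25, the mitochondrial carriers, was the largest with 37 members, and 0 genes of slc6 reached an unadjusted p under 0.05 in limma. Of the 62 carriers with more than 1 probe in the comparison, the probes of 43 had values of the same sign, and their range had a median of 0.16. The widest was that of slc2a11l, at 0.93.

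Carriers of the same families that bear other symbols had a median of -0.02, against +0.05 over the 183 carriers. Their quartiles were -0.41 and +0.15, against -0.15 and +0.33. Of 41 listed, 15 were compared, 7 with positive values. Beside 4.17% higher and 3.39% lower of all transcripts, 0 were higher and 1 was lower (6.67%) at an unadjusted p under 0.05 in limma. That gene was slco1c1, which in mammals carries thyroid hormone, at -0.85 ± 0.35 (limma adjusted p = 0.649) and -0.02 after normexp, and its probe was well above background on 2 of 4 sorafenib arrays. The heme exporter gene flvcr1 stood at -0.63 ± 0.38, and at -0.16 without sorafenib replicates 2 and 3. Of 15 listed partners of solute carriers 9 were compared. Beside the same shares of all transcripts, 0 were lower and 1 was higher (11.1%) at an unadjusted p under 0.05 in limma. This was nherf1a, a scaffold gene for apical carriers, at +0.60 ± 0.26 (limma adjusted p = 0.654). Controls stood at 4.31, 3.26, 3.49 and 3.30 and sorafenib arrays at 4.15, 4.11, 4.52 and 3.97, so that control replicate 1 alone overlapped the sorafenib group. The mitochondrial calcium uptake gene micu2 stood at +0.49 ± 0.23.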

How the data were processed

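RNA of 8 heart samples, 4 control and 4 sorafenib, was measured on one-colour Agilent arrays. The files deposited by the authors hold linear spot intensity, processed by the scanning software with its background subtracted and not normalized between arrays. Per the file headers the software was Feature Extraction 10.1.1.1 with annotation build danRer5, while the submitters' processing notes name version 8.0. A series table deposited by the authors holds log2 values of 21383 probes. Each of its columns matched its own array best (r of 0.975 to 0.985), its medians were 7.20 to 7.22 and it has a floor of 5.66, which 1103 probes share on every array. Its centring and filter are not stated by any source used, and it served as an alternative.

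After control spots and 5 to 15 outlier spots per array were dropped (0 were saturated), replicate spots of a probe were averaged. Groups were compared on the log2 scale, after subtracting each array's 75th percentile, with R 4.3.3 and limma 3.58.1 (functions lmFit and eBayes), without covariates and with Benjamini-Hochberg adjustment. Probes well above background on at least 4 arrays entered, and the brightest stood for a gene. The RefSeq table of assembly GRCz12tu supplied names only: 15163 of 43603 probes (34.78%) matched 10536 genes, and 7356 with Ensembl transcript numbers stayed unnamed. No carrier compared had an array left out. Script steps were tested on simulated data.

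Alternatives were normexp (offset 50) on the median signal, since the mean signal that the plan had assumed is not a column of the files, quantile or median scaling, the series table, other filters, probe means, slide and replicate number as blocks, array weights and each array left out. Spots with an outlying local background were left out of normexp. The carriers, the lists and the rules were chosen with earlier results of these data known. The rule named 51 carriers and 21 other genes: in each direction the 12 of smallest p, the leading member of each role in each direction, the cardiac list, 2 genes of each other list and the 4 most different duplicate pairs. Genes named outside it were chosen after their values were seen.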

Additional observations from a re-analysis of the deposited data

Results flagged for a closer look

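In 8 of 144 groups of 4 arrays (5.56%) the array at the edge stood further from the others than Dixon's 95% limit, where chance gives about 5%. Among solute carriers, slc22a13b stood at -2.17 in sorafenib replicate 4, against -2.39 to -2.36 in the other sorafenib arrays. The level of slc38a4 was 6.17 in control replicate 1, against 5.50 to 5.58 in the other controls. In sorafenib replicate 3 slc45a3 stood at -0.32, against -0.75 to -0.68, and in control replicate 4 slc39a6 stood at 0.77, against 0.48 to 0.52. Among genes of the other lists, the retinal gene rlbp1b stood at -2.24 in control replicate 1, against -2.62 to -2.60. The cadherin gene cdh17 stood at 2.82 in sorafenib replicate 3, against 2.24 to 2.30. The tight junction gene cldn5b stood at 1.99 in sorafenib replicate 1, against 1.38 to 1.48, and slco1c1 at -5.88 in sorafenib replicate 3, against -4.37 to -4.24.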

How the results depend on the processing

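Dim probes and 4 arrays per group set the main limits: 21 of the 183 carriers were not well above background on every array, and the smallest adjusted p of a carrier was 0.366. Higher carriers outnumbered lower ones at an unadjusted p under 0.05 in each alternative run except slide 1 alone, with 4 and 5. At an adjusted p under 0.05 limma called 1 transcript after normexp, 2 with quantile scaling, 2 with probe means, 8 with the series table (3 higher, 5 lower) and 45 with array weights (25 higher, 20 lower), in place of 0. Among these, 1 solute carrier was called, slc2a15b with array weights. At an unadjusted p under 0.05 the carriers numbered 45 higher and 22 lower with array weights (11.7% and 12% of all transcripts) and 20 and 6 after normexp (3.69% and 3.12%), in place of 14 and 6 (4.17% and 3.39%). Leaving out each array in turn gave 7 to 30 higher and 4 to 16 lower carriers, 8 to 29 higher and 3 to 10 lower carriers without overlap, and 0 to 1 transcripts called. Smaller groups separate more easily, and the share of all transcripts without overlap was not computed for these fits. These counts without overlap therefore say nothing particular about carriers. Without sorafenib replicates 2 and 3 there were 6 higher and 4 lower carriers (1.75% and 1.70% of all transcripts), and 11 and 9 without overlap. That last count cannot be set against the 8 and 3 of all arrays, since the sorafenib group is smaller. With probe means 5 lower carriers did not overlap, in place of 3. For neither setting was the share of all transcripts without overlap computed. With the replicate number as a block 24 carriers were higher and 16 lower at an unadjusted p under 0.05 (6.62% and 6.83% of all transcripts), and 0 transcripts were called. Of the 14 carriers typical of neurons and glia 5 were lower in that fit, in place of 0, and of the 3 listed for pigment cells 3 were, in place of 1. The labels do not say that a number marks shared material. Deviations of same-numbered arrays correlated at 0.27, 0.43, 0.04 and 0.70, as a hint from the data only. Each control array correlated best with its own number. Sorafenib replicate 3 did not, with 0.23 for control replicate 1 and 0.21 for control replicate 2. After normexp the value was +0.50 for slc25a15a, +0.47 for slc35h1, -0.20 for slc45a3, -0.32 for slc22a7a and +0.33 for slc27a1b. The cause of these differences was not tested.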

Other observations

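The sodium-potassium pump, which builds the sodium gradient that many solute carriers use, had members on either side of 0. Of 16 listed pump genes 14 were compared, 7 above 0. At an unadjusted p under 0.05 in limma 2 were higher (14.3%) and 0 lower, beside 4.17% and 3.39% of all transcripts. The alpha subunit gene atp1a1a.4, which in zebrafish skin marks ionocytes, stood at 2.87, 3.17, 3.07 and 3.48 on control arrays 1 to 4 and at 4.04, 3.95, 4.13 and 4.00 on sorafenib arrays 1 to 4. The groups did not overlap. The log2 fold change was +0.88 ± 0.17 (limma adjusted p = 0.306), and +0.87 without sorafenib replicates 2 and 3. The subunit gene atp1a1a.3 was at +0.61 ± 0.26, with control replicate 3 (1.09) above sorafenib replicate 1 (1.07). The neural subunit gene atp1a3a, which also belongs to the neural markers, stood at -0.77.

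Of the remaining marker lists, endothelium had 4 of 13 listed genes compared. All 4 were below 0 and lower at an unadjusted p under 0.05 in limma, beside 3.39% of all transcripts. The median of the endothelium list was -0.70, and -0.76 without sorafenib replicates 2 and 3. Of its defining markers cldn5b stood at -0.95, cdh5 was not compared and tie1 had no matched probe. Erythroid genes had 6 of 10 values above 0 (median +0.24) and the 3 compared eye and lens genes were all above 0 (median +0.75).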
